A study of Mus musculus with 7 samples.

Results

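The genes described here encode the core of transforming growth factor beta (TGF-beta) signalling outside the nucleus: the ligands Tgfb1, Tgfb2 and Tgfb3, the activin subunit Inhba, the receptors Tgfbr1, Tgfbr2 and Tgfbr3, Ltbp1 and Ltbp2 of the latent TGF-beta binding protein (LTBP) family, and the matrix gene Tgfbi. They are 10 of 22367 genes with a usable value in the deposited tables, were chosen by symbol, and each had 1 entry per table. All 10 were among the 13466 genes that reached a mean of at least 1 FPKM and were tested. Levels are in FPKM, a fragment count scaled to transcript length and library depth, so different genes can be set side by side.

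RNA was sequenced in 7 libraries from fetal mouse kidneys kept in culture, of strain C57BL/6 per the labels. Beta-catenin, which carries the canonical Wnt signal to the nucleus, had been activated in every one of them, so no library here is free of it. In 3 libraries E2-2 was also deleted, and in 4 it was wildtype. E2-2 is a transcription factor of the E protein class that binds the DNA letters CANNTG (the E-box). The dams had received tamoxifen (2 mg per 40 g of body weight) at 10.5 days post coitum, the age at which the kidneys were taken, and culture lasted 3 to 4 days. The labels do not name the driver of recombination, the beta-catenin allele or the days in culture of each library. They also do not say whether the libraries came from separate animals, and the p-values below therefore reflect the spread among these 7 libraries, which may be partly technical.

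TGF-beta ligands are made as precursors, cut by a protease, and secreted in a latent complex in which the propeptide shields the ligand. Members of the LTBP family anchor that complex to fibrillin fibres, from which integrins and proteases release the ligand. The freed ligand joins the receptor kinases encoded by Tgfbr2 and Tgfbr1, which phosphorylate Smad2 and Smad3. In the kidney the pathway is known for its part in branching of the ureteric bud, in the growth of stroma and in fibrosis.

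The target of the deletion, Tcf4 (the gene of E2-2), was at 33.5 to 42.0 FPKM in the deleted libraries and 28.7 to 58.1 FPKM in the wildtype ones. A whole-gene FPKM does not show the loss of single exons and so does not check the genotype. Of 7 nephron progenitor, 8 ureteric bud and 6 renal stroma markers, none was at 0 in any library. Of markers from outside the kidney, none passed an adjusted p of 0.05 by limma. The 6 melanocyte markers, each with a positive difference, summed to 25.9 to 92.5 FPKM in the deleted and 3.78 to 23.3 FPKM in the wildtype libraries. The 8 cartilage and bone markers summed to 58.6 to 92.8 and 33.0 to 70.4 FPKM, which overlap, but they went different ways. On the log2(FPKM + 1) scale, deleted minus wildtype, the 5 bone genes were positive: Runx2 0.55, Sp7 1.6, Ibsp 2.66, Alpl 0.86 and Bglap 0.67. The cartilage genes were negative: Col2a1 -0.99, Sox9 -0.16 and Acan -0.66, the last below a mean of 1 FPKM. The part of the melanocyte, cartilage and bone markers in the results below was not tested. A pair of libraries, singled out after the values had been seen, stood apart. E2-2 deleted replicate 2 had the lowest level of 44.4% of all genes tested and a summed level of 7 nephron progenitor markers of 74.1 FPKM, against 177 to 379 FPKM in the other 6 libraries. Its median log2(FPKM + 1) over all genes tested was also the lowest, 3.755 against 3.878 to 3.958. The values were not scaled further, and the part of this offset in the 44.4% was not tested. E2-2 wildtype replicate 3 had the lowest level of 21.4% of the genes, and its 8 ureteric bud markers summed to 78.6 FPKM, against 166 to 306 FPKM elsewhere. Their mean Pearson r with the other libraries was 0.925 and 0.949, and that of the remaining 5 was 0.955 to 0.968 (over 13466 genes). On this measure wildtype replicate 3 lay close to the remaining libraries. In bulk RNA, fewer cells of a type and less RNA per cell cannot be told apart.

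None of the 10 genes differed between the genotypes beyond the spread of the libraries. Differences are E2-2 deleted minus E2-2 wildtype on the log2(FPKM + 1) scale, which understates the change of low genes. By limma, 0 of the 10 passed an adjusted p of 0.05, 0 reached an unadjusted p under 0.05, and the smallest adjusted p was 0.795. Over all genes tested, 0% were called at the adjusted threshold, 3.29% had an unadjusted p under 0.05 with higher levels in the deleted libraries and 1.2% with lower levels. The groups of libraries overlapped for all 10 genes, and the background share is 2.84% for every deleted library above every wildtype one and 2.05% for the reverse. A positive difference was found for 7 of the 10 genes (39.3% of all genes tested), and their median difference was 0.20, where that of all genes was -0.05. Left-out libraries moved this median between 0.08 (without deleted replicate 2) and 0.31 (without deleted replicate 1), and it was 0.05 without both libraries that stood apart. The differences ran from -0.50 (Ltbp2) to 0.60 (Tgfb2). In simulated data of the same layout, limma called 57% of the genes changed by 1 on this scale and 96% of those changed by 2. Changes of the size seen in the members can therefore go uncalled, and 0 calls do not show that the levels were equal.

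**Figure D1:**
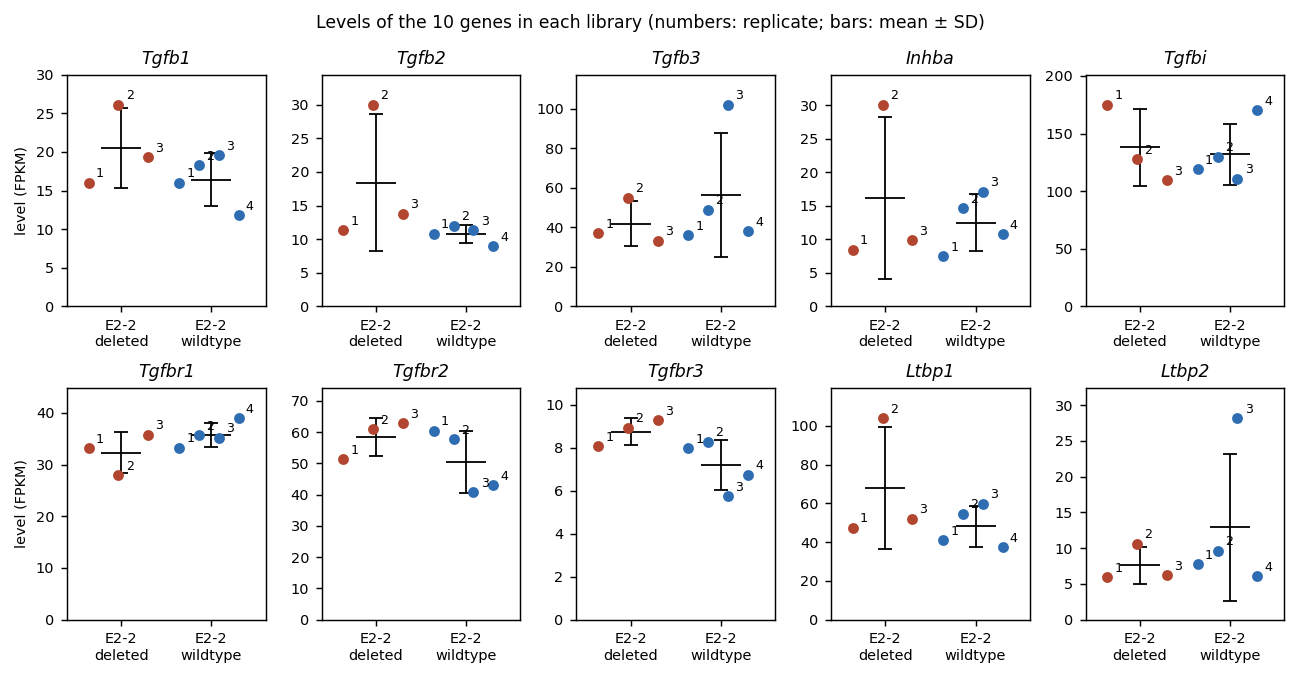
Levels of the 10 genes in FPKM (vertical axes, from 0) in the 3 E2-2 deleted and 4 E2-2 wildtype libraries. Points are libraries with their replicate numbers, and black bars are mean ± SD; deleted replicate 2 is the highest point for Tgfb1, Tgfb2, Inhba and Ltbp1, and wildtype replicate 3 for Tgfb3 and Ltbp2.

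The sequence before the start of Tgfb2, Ltbp2 and Ltbp1 is shown because these members had the largest differences in either direction among ligands and LTBP genes, and because E2-2 binds E-boxes. The sequences are from RefSeq (GRCm38.p6) and read 5′ to 3′ on the strand of the gene, ending just before the annotated start except for Ltbp2, which is cut short of the start because a longer transcript begins there. Capitals mark each match to CANNTG.
Tgfb2: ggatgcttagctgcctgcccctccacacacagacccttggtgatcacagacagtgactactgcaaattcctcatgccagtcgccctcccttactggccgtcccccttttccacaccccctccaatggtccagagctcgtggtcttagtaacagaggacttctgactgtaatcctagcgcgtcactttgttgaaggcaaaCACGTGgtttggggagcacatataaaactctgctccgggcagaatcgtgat
Ltbp2: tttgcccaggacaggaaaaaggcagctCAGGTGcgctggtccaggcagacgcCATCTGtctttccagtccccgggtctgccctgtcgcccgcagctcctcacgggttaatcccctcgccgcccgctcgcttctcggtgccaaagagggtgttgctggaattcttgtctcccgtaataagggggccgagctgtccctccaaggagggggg
Ltbp1: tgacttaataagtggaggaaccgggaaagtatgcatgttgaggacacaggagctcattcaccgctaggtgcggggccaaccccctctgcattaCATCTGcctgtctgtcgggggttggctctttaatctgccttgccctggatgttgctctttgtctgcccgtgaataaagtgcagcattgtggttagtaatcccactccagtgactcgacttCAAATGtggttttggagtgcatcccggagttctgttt
The Tgfb2 stretch is chr1:186705990-186706239 on the minus strand, the Ltbp2 stretch chr12:84876533-84876741 on the minus strand, and the Ltbp1 stretch chr17:75178531-75178780 on the plus strand, before the second of 2 annotated starts. That window was chosen after the search because it holds matches; the window of the first Ltbp1 start (chr17:75005279-75005578) holds 0 matches to CANNTG. The Tgfb2 stretch holds CACGTG with its first base 51 bases before the start. The Ltbp2 stretch holds CAGGTG and CATCTG, at 223 and 198 bases, and the Ltbp1 stretch CATCTG and CAAATG, at 157 and 37 bases. In the Tgfb2 window the antisense long noncoding gene Gm29491 also has an exon.

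E-boxes were not more frequent in these windows than in those of all genes. Promoter windows of 300 bases (250 before the start to 50 after) were found for 8 of the 10 members, with 10 windows in all; the other members are Tgfb3 and Tgfbr3. CANNTG, searched on both strands, was in 5 of the 10 windows and in 72.3% of the 32851 windows of all genes. CAGNTG, the form of the E-box favoured by E proteins and a subset of CANNTG, was in 3 of 10 windows and in 51.4% of all. Those windows were of Tgfbr2, Ltbp2 and the second Ltbp1 start. The CACGTG of Tgfb2 is not of this form, and its window held 0 matches to CAGNTG. The TCF/LEF core CTTTGA was in 1 window (Inhba; 16% of all windows), the Smad letters CAGACA were in 3 (21% of all) and GTCTAGAC was in 0 (0.213% of all). These are matches of letters and not sites at which binding was measured.

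Among the 3 TGF-beta ligands Tgfb3 was the most abundant in every library. Tgfb3 (chromosome 12, 87397693 to 87419991) encodes the ligand best known from palate closure and lung development. This and the following loci are as deposited; their genome build is not named, and they are not on the build of the promoter windows above. Its level was 37.1, 54.9 and 33.3 FPKM in deleted replicates 1 to 3 and 36.0, 49.0, 102 and 38.0 FPKM in wildtype replicates 1 to 4. Wildtype replicate 3 was 2.73 times the median of the other 6 libraries, and the groups overlapped. The means were 41.8 ± 11.5 (SD, n = 3) and 56.4 ± 31.3 FPKM (SD, n = 4), a difference of -0.32 (SE 0.36, 95% interval -1.16 to 0.52; limma adjusted p = 0.817). The difference was 0.01 without wildtype replicate 3 and -0.53 without deleted replicate 2. By the prefix of the deposited library names, BI (deleted replicates 1 and 2, wildtype replicates 1 and 2) or BM (the other 3), a mark of unknown meaning, it was 0.10 within BI and -0.89 within BM.

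Tgfb2 had the largest positive difference of the 10 genes. It encodes the ligand whose loss in the mouse is known to give defects of heart, skeleton and urogenital tract, and lies on chromosome 1 (188447065 to 188529871). Its level was 11.3, 30.0 and 13.8 FPKM in the deleted libraries and 10.8, 12.0, 11.3 and 8.99 FPKM in the wildtype libraries. Deleted replicate 2 stood far above all others, deleted replicate 3 was above all wildtype libraries, and deleted replicate 1 lay among them. The means were 18.4 ± 10.2 (SD, n = 3) and 10.8 ± 1.30 FPKM (SD, n = 4), a difference of 0.60 (SE 0.30, 95% interval -0.08 to 1.29; limma adjusted p = 0.795, exact 2-sided permutation p = 0.0857). It was 0.20 without deleted replicate 2 and 0.87 without deleted replicate 1, where the unadjusted limma p was 0.0203 and the adjusted p 0.430. The difference of Tgfb2 was 0.66 within BI and 0.41 within BM, which holds 1 deleted library.

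Tgfb1, the ligand known for restraint of the immune system and for fibrosis (chromosome 7, 26472021 to 26490015), was at 16.0, 26.1 and 19.3 FPKM in the deleted libraries and at 16.0, 18.3, 19.6 and 11.8 FPKM in the wildtype libraries. The highest value was again deleted replicate 2 and the lowest wildtype replicate 4. The difference was 0.30 (SE 0.21; limma adjusted p = 0.795), 0.24 within BI, 0.32 within BM and 0.11 without deleted replicate 2. Macrophages and platelets are known sources of this ligand. The 8 macrophage markers, 7 with a positive difference, summed to 102 to 208 FPKM in the deleted libraries and to 85.7 to 178 FPKM in the wildtype ones. The 5 platelet markers summed to at most 12.7 FPKM; the pair that reached a mean of 1 FPKM, Pf4 and Gp1bb, had differences of 0.73 and -0.03, and Ppbp and Gp9 were listed at 0 in some libraries. The part of such cells in the Tgfb1 level was not tested.

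Inhba encodes the beta A subunit, which forms activin A as a dimer and inhibin A with the alpha subunit (chromosome 13, 16106308 to 16119044). Its level was 8.47, 30.1 and 9.91 FPKM in the deleted libraries and 7.52, 14.7, 17.1 and 10.8 FPKM in the wildtype ones. Deleted replicate 2 was 2.90 times the median of the others, while deleted replicates 1 and 3 lay below 3 of the 4 wildtype libraries. The difference of 0.18 (SE 0.44; limma adjusted p = 0.910) turned to -0.36 without deleted replicate 2 and to -0.02 without wildtype replicate 1. Within BI it was 0.57, within BM -0.42, and without both libraries that stood apart -0.20. This gene rested on the fewest fragments of the 10, 187 to 721 per library as inferred from the deposited intervals.

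The make-up of the ligand pool was also compared, since a share does not move when a whole library is scaled. Tgfb3 made up 49.5% to 76.8% of the summed FPKM of the 3 ligands. With E2-2 deleted, Tgfb2 had 17.6%, 27.0% and 20.8%; with E2-2 wildtype, it had 17.2%, 15.2%, 8.51% and 15.3%. The groups did not overlap, with a narrow margin between deleted replicate 1 and wildtype replicate 1. The means were 21.8% ± 4.81 (SD, n = 3) and 14.0% ± 3.81 (SD, n = 4), 7.76 percentage points apart. The exact 2-sided permutation p was 0.0286, the smallest that 3 against 4 libraries can give. Adjusted over the 10 shares tested it was 0.143, so the share did not pass. A single share at this smallest p cannot pass after adjustment over 10, whatever its size, so the adjusted test cannot decide here. The Tgfb2 share differed by 6.13 points within BI and 8.88 within BM. It differed by 5.14 without deleted replicate 2, by 5.92 without wildtype replicate 3, and by 3.30 without both libraries that stood apart. Tgfb3 had 52.4% ± 4.54 (SD, n = 3) against 65.1% ± 8.35 (SD, n = 4; exact permutation p = 0.0857, adjusted p = 0.286), a gap of -12.7 points that was -7.35 without both libraries that stood apart. The summed level of the 3 ligands was 80.6 ± 26.3 (SD, n = 3) and 83.6 ± 34.4 FPKM (SD, n = 4).

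**Figure D2:**
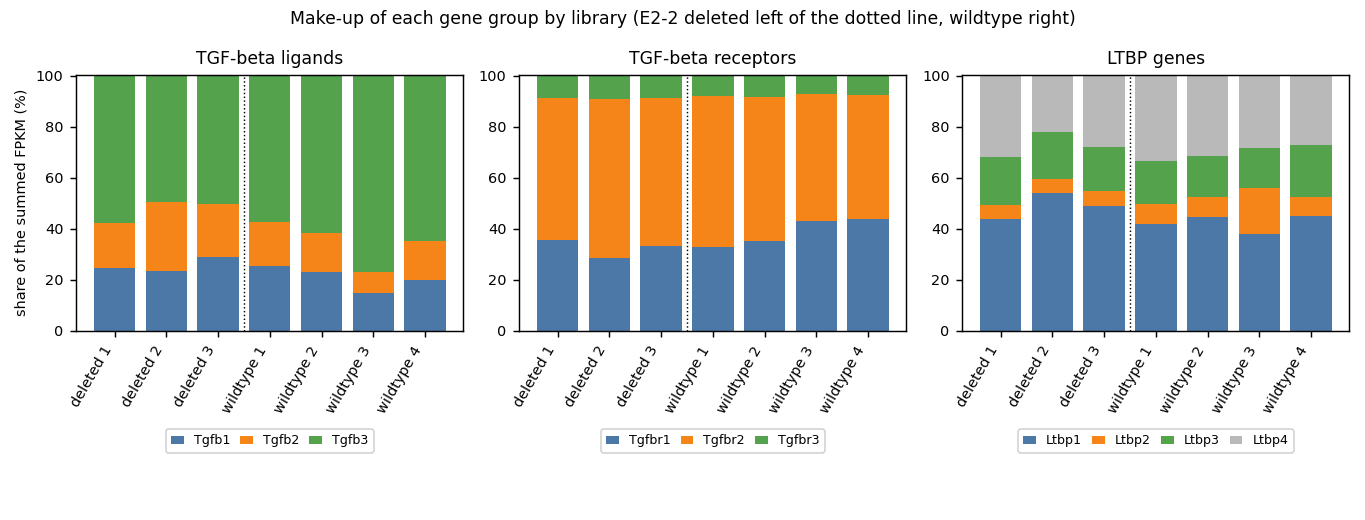
Share of each gene (vertical axis, % of the summed FPKM) among the 3 TGF-beta ligands, the 3 receptors and the 4 LTBP genes, 1 bar per library. The Tgfb2 band is 17.6% to 27.0% in the deleted libraries and 8.51% to 17.2% in the wildtype libraries, and the Ltbp2 band is widest in wildtype replicate 3, at 17.9%.

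The receptor genes varied least. Tgfbr1, the type I receptor kinase that phosphorylates Smad2 and Smad3 (chromosome 4, 47366177 to 47427796), was at 33.2, 28.0 and 35.8 FPKM in the deleted libraries and 33.3, 35.7, 35.2 and 39.0 FPKM in the wildtype libraries. Its coefficient of variation over the 7 libraries was 9.89%, where the median gene tested had 16.7%. Deleted replicate 2 was its lowest library, and the other 6 lay close together. The difference was -0.15 (SE 0.11, 95% interval -0.40 to 0.11; limma adjusted p = 0.795), -0.17 within BI, -0.05 within BM and -0.05 without deleted replicate 2.

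Tgfbr2, the type II kinase that binds the ligand first (chromosome 9, 115996813 to 116084481), was at 51.4, 61.0 and 62.8 FPKM in the deleted libraries and at 60.4, 57.8, 40.8 and 43.1 FPKM in the wildtype libraries. Within the wildtype group the values followed the name prefix, higher in replicates 1 and 2 (BI) than in replicates 3 and 4 (BM). The difference was 0.22 (SE 0.17; limma adjusted p = 0.795), with -0.08 within BI, 0.57 within BM and 0.13 without wildtype replicate 3. Endothelial cells are known to carry this receptor. The 7 endothelial markers, 5 with a positive difference, summed to 312, 252 and 368 FPKM in the deleted libraries and to 414, 401, 177 and 258 FPKM in the wildtype ones, lowest in wildtype replicate 3, where Tgfbr2 was also lowest; their part in the result was not tested.

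Tgfbr3 encodes betaglycan, a co-receptor without kinase activity that presents TGF-beta 2 to Tgfbr2 and also binds inhibin (chromosome 5, 107535589 to 107718614). Its level was 8.07, 8.93 and 9.28 FPKM in the deleted libraries and 7.97, 8.29, 5.75 and 6.74 FPKM in the wildtype libraries. All deleted libraries but replicate 1 lay above every wildtype library, and replicate 1 was below wildtype replicate 2. The means were 8.76 ± 0.626 (SD, n = 3) and 7.19 ± 1.17 FPKM (SD, n = 4), a difference of 0.26 (SE 0.14; limma adjusted p = 0.795) with a 95% interval from -0.06 to 0.59. Within BI the difference was 0.05, within BM 0.51, and without wildtype replicate 3 it was 0.17. With a weight per library it reached an unadjusted limma p of 0.0492 (adjusted p = 0.585). As a share of the 3 receptors Tgfbr3 was at 8.70%, 9.12% and 8.61% with E2-2 deleted, and at 7.84%, 8.15%, 7.03% and 7.60% with E2-2 wildtype. These shares did not overlap, and the means differed by 1.16 points (exact permutation p = 0.0286, adjusted p = 0.143), 0.917 within BI and 1.30 within BM. Tgfbr2 held the largest share of the receptors in every library, 48.5% to 62.3%.

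Ltbp1, which anchors the latent complex in the matrix (chromosome 17, 75404869 to 75792307, 2 start sites in the tables), was at 47.4, 104 and 52.1 FPKM in the deleted libraries and 40.9, 54.6, 59.8 and 37.4 FPKM in the wildtype libraries. Deleted replicate 2 was 2.09 times the median of the others, and the remaining deleted libraries lay inside the wildtype range. The difference was 0.42 (SE 0.29, 95% interval -0.25 to 1.10; limma adjusted p = 0.795) and 0.07 without deleted replicate 2, with 0.56 within BI and 0.14 within BM. Ltbp1 was the most abundant of the 4 LTBP genes in every library, with 38.0% to 54.2% of their summed FPKM.

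Ltbp2 is a microfibril protein of the same family that does not bind latent TGF-beta (chromosome 12, 86124162 to 86217445). It was at 5.96, 10.6 and 6.20 FPKM in the deleted libraries and at 7.77, 9.67, 28.2 and 6.05 FPKM in the wildtype libraries. Wildtype replicate 3 was 4.03 times the median of the others, the largest such ratio among the 10 genes. The difference of -0.50 (SE 0.47, 95% interval -1.58 to 0.59; limma adjusted p = 0.798) was -0.06 without that library and -0.73 without deleted replicate 2. Within BI it was -0.11 and within BM, which holds wildtype replicate 3, it was -0.99. Among the 4 LTBP genes Ltbp2 had 5.50%, 5.52% and 5.85% with E2-2 deleted, and 7.91%, 7.88%, 17.9% and 7.30% with E2-2 wildtype. Here too the groups did not overlap, and the difference of -4.63 points did not pass (exact permutation p = 0.114, adjusted p = 0.286). It was -2.08 points without wildtype replicate 3. Shares within a gene group add up to a whole and so depend on each other. How often the shares of other genes keep the genotypes apart was not measured. The antisense gene D030025P21Rik shares 764 exon bases with Ltbp2 (9.34% of its exon bases in GENCODE M21) and was at most at 0.0679 FPKM. Exons of Gm37804 and Gm48008 overlap Tgfb3 (4.82% and 7.60% of its exon bases), of Gm29491 Tgfb2 (2.14%) and of Gm43422 Tgfbr3 (4.54%), and whether the counting used strand is not stated, so reads there may come from either gene.

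Tgfbi, a secreted matrix protein named for its induction by TGF-beta (chromosome 13, 56710964 to 56740700), was the most abundant of the 10 genes in every library. Its level was 175, 128 and 109.6 FPKM in the deleted libraries and 119, 129.8, 111 and 170.1 FPKM in the wildtype libraries. Each genotype had 1 library near 170 FPKM, deleted replicate 1 and wildtype replicate 4, and neither was a library in which the ligands were high. The difference was 0.05 (SE 0.21, 95% interval -0.43 to 0.52; limma adjusted p = 0.949). Its sign followed single libraries: it was -0.14 without deleted replicate 1 and -0.03 without wildtype replicate 3, and it was 0.27 within BI and -0.32 within BM.

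**Figure D3:**
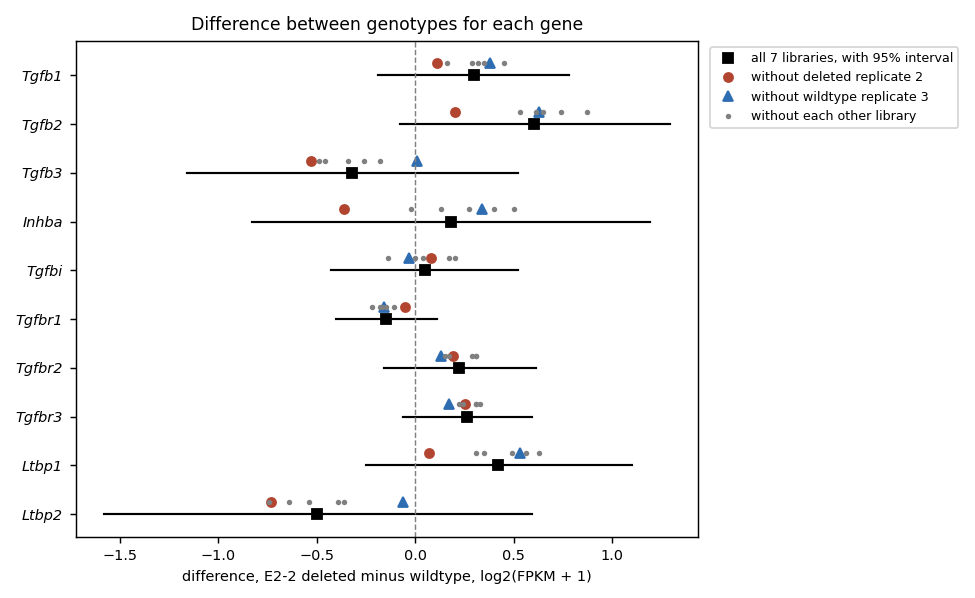
Difference between E2-2 deleted and E2-2 wildtype for each gene (horizontal axis, log2(FPKM + 1)), with squares and 95% intervals for all 7 libraries and small symbols for the value without each library. All 10 intervals cross 0, and without deleted replicate 2 the Tgfb2, Ltbp1 and Tgfb1 values move to 0.20, 0.07 and 0.11.

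In order of their mean over the 7 libraries, Tgfbi came first at 135 ± 27.0 FPKM (SD, n = 7). Ltbp1 (56.6 ± 22.3), Tgfbr2 (53.9 ± 8.95) and Tgfb3 (50.1 ± 24.4) followed and did not differ from one another beyond their spread. Tgfbr1, at 34.3 ± 3.39, overlapped Tgfb3 in range and lay above Tgfb1, at 18.2 ± 4.39, in every library. Inhba (14.1 ± 7.83), Tgfb2 (14.0 ± 7.19) and Ltbp2 (10.6 ± 7.95) overlapped with each other and with Tgfb1, and Tgfbr3 was last by mean at 7.86 ± 1.23 FPKM (SD, n = 7), within the range of Ltbp2 in all libraries but 1. The coefficient of variation was 74.7% for Ltbp2, 55.6% for Inhba, 51.2% for Tgfb2, 48.6% for Tgfb3 and 39.5% for Ltbp1, and 7 of the 10 genes were above the median of all genes tested. The deposited 95% interval of a single value was at most 14.6% of it on either side (Inhba) and at most 8.88% for the other 9 genes. These intervals cover the estimate within a library and not the spread between libraries.

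The spread had a pattern by library that cut across genotype. Deleted replicate 2 was the highest library for Tgfb1, Tgfb2, Inhba and Ltbp1 (4 of 10 genes), as it was for 17.2% of all genes tested. Wildtype replicate 3 was the highest for Tgfb3 and Ltbp2 and the lowest for Tgfbr2 and Tgfbr3, where it was the highest for 19.4% and the lowest for 21.4% of all genes. Wildtype replicate 4, not of the pair that stood apart, was the lowest for Tgfb1, Tgfb2 and Ltbp1 and the highest for Tgfbr1. It was the lowest for 10.4% and the highest for 24.5% of all genes. Over all 7 libraries the highest level was 1.39 (Tgfbr1) to 4.73 (Ltbp2) times the lowest.

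**Figure D4:**
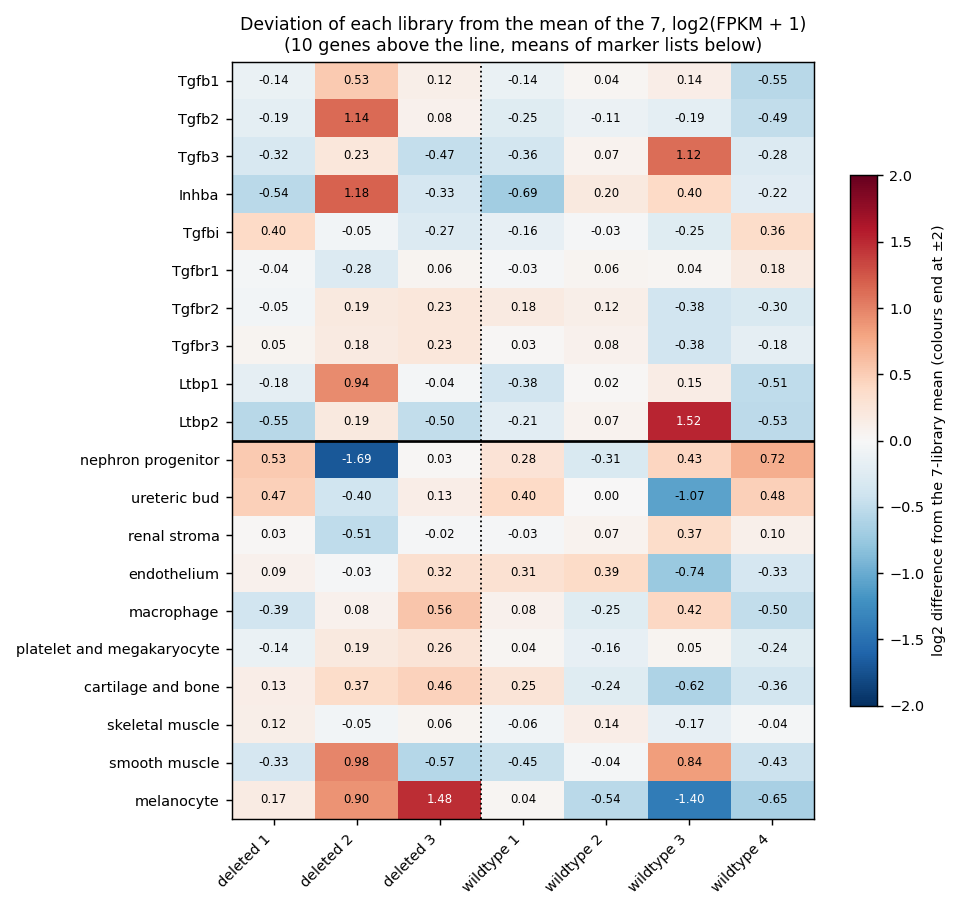
Deviation of each library (columns) from the mean of the 7 on the log2(FPKM + 1) scale, for the 10 genes (above the line) and the means of marker lists (below it). Deleted replicate 2 shows 1.14 for Tgfb2, 1.18 for Inhba, 0.98 for smooth muscle and -1.69 for nephron progenitor markers, and wildtype replicate 3 shows 1.12 for Tgfb3, 1.52 for Ltbp2, 0.84 for smooth muscle and -1.07 for ureteric bud markers.

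Most smooth muscle markers stood high in the same pair of libraries. The 5 genes of that list (Myh11, Acta2, Tagln, Cnn1 and Smtn) summed to 752, 1995 and 633 FPKM in the deleted libraries and to 713, 908, 1931 and 769 FPKM in the wildtype libraries, and none was at 0. Myh11, Acta2, Tagln and Cnn1 were each highest in this pair. Smtn was at 53.0 FPKM in deleted replicate 2 and 58.2 FPKM in wildtype replicate 3, with 56.3 FPKM in wildtype replicate 2. The 6 renal stroma markers summed to 258, 215 and 246 FPKM against 255, 262, 311 and 286 FPKM, a sum lowest in deleted replicate 2. Single stroma markers were split in that library. Foxd1 (2.3 FPKM), Aldh1a2 (20.9 FPKM) and Meis1 (36.6 FPKM) had their lowest level there. Pdgfra had its highest (69.7 FPKM), and Pdgfrb and Tbx18 lay within the range of the others. The part of the cell make-up in the levels of the 10 genes was not tested.

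Genes commonly induced by TGF-beta were high in these libraries as well. Of 20 response genes tested, 11 had their highest level in deleted replicate 2 and 7 in wildtype replicate 3; the libraries were singled out after their values had been seen. Acta2, the actin of smooth muscle and myofibroblasts, was at 1158 FPKM in deleted replicate 2 and 1061 FPKM in wildtype replicate 3, and between 328 and 486 FPKM in the other 5. Fn1, which encodes fibronectin, was at 664 and 384 FPKM in them, and between 209 and 311 FPKM elsewhere. Ctgf, a matricellular growth factor gene, was highest in wildtype replicate 3 at 301 FPKM and was at 168 FPKM in deleted replicate 2. Acta2, Tagln and Cnn1 belong to the smooth muscle list too. These 3 genes were named after their values were seen.

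Between genotypes the response genes did not separate. By limma 0 of 20 passed the adjusted threshold in either direction, 12 had a positive difference, and the median was 0.05. Cdkn2b, a cell cycle inhibitor gene, was at 6.81, 11.3 and 6.80 FPKM in the deleted libraries and at 3.93, 6.95, 4.72 and 4.26 FPKM in the wildtype libraries. It was the 1 response gene with an unadjusted limma p under 0.05 (difference 0.63, SE 0.23, p = 0.0249, limma adjusted p = 0.795, exact permutation p = 0.114), and it differed by 0.41 without deleted replicate 2. Cdkn1a, another inhibitor of the cell cycle, differed by 0.44 (SE 0.24), and by 0.23 without deleted replicate 2.

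Genes that store, release and process latent TGF-beta gave 12 positive differences out of 16, a median of 0.09 and 0 calls by limma. Dcn, the proteoglycan decorin that binds TGF-beta, was at 347, 606 and 504 FPKM in the deleted libraries and at 349, 260, 455 and 296 FPKM in the wildtype libraries, a difference of 0.51 (SE 0.27; limma adjusted p = 0.795). The lowest deleted library lay below 2 wildtype libraries. Bmp1, a protease that cleaves latent TGF-beta binding protein, differed by 0.20 (SE 0.14), and Itgb5, an integrin subunit, by -0.19 (SE 0.13). Dcn and Bmp1 differed by 0.33 and 0.05 without deleted replicate 2.

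In the activin branch, 7 of 9 genes were tested, 5 had a positive difference, the median was 0.02 and limma called 0. Inhbb, the other beta subunit, was at 3.32, 9.73 and 8.20 FPKM in the deleted libraries and at 5.52, 4.00, 4.25 and 2.59 FPKM in the wildtype libraries. Its difference was 0.60 (SE 0.34), with 0.26 within BI, 1.08 within BM and 0.34 without deleted replicate 2. Fst, which encodes the activin antagonist follistatin, differed by 0.42 (SE 0.30) and Inha, the inhibin alpha subunit, by 0.27 (SE 0.16). Deleted replicate 1 was the lowest deleted library for Inhbb and Fst, at 3.32 and 4.17 FPKM, and without it they differed by 1.00 and 0.78. Fst differed by 0.26 without deleted replicate 2 and 0.22 without deleted replicate 3, and by 0.02 within BI against 1.03 within BM. The receptor gene Acvr1c and the gene Igsf1 did not reach a mean of 1 FPKM.

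Of the 4 co-receptor genes, 2 had a positive difference, the median was 0.09 and limma called 0. Bambi, a pseudoreceptor that blocks type I receptors and a known target of beta-catenin, was at 15.3, 31.3 and 27.0 FPKM in the deleted libraries and at 19.8, 16.9, 12.9 and 12.2 FPKM in the wildtype libraries. Its difference of 0.60 (SE 0.26; limma adjusted p = 0.795, exact permutation p = 0.143) stood at 0.25 for the BI libraries, 1.04 for the BM libraries and 0.40 without deleted replicate 2. Eng, the endothelial co-receptor endoglin, differed by 0.22 (SE 0.21) and by 0.10 without wildtype replicate 3, and Cd109 by -0.14 (SE 0.17). Both turned direction with the prefix: Eng differed by -0.16 in the BI and 0.65 in the BM libraries, and Cd109 by -0.39 and 0.15.

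The Smads and their regulators differed little between the genotypes. Of 15 tested, 5 had a positive difference, the median was -0.02, the range was -0.25 to 0.22, and limma called 0. Wwp1, a ubiquitin ligase, differed by 0.22 (SE 0.14; 0.13 without deleted replicate 2), Zfyve9, which brings Smads to the receptor, by -0.16 (SE 0.12), and Tgif2, a repressor, by -0.25 (SE 0.21). Zfyve9 and Tgif2 differed by -0.06 and -0.08 without deleted replicate 2. Over the 62 genes tested in the 5 lists, 36 were positive, the median was 0.02, and 1 was at an unadjusted p under 0.05 (Cdkn2b), where 4.49% of all genes tested were.

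The gene most like each member was sought among 12333 named genes by Pearson r of log2(FPKM + 1) over the 7 libraries, as a measure of likeness with no test. For Tgfb2 it was P4ha3 (r = 0.993), a collagen prolyl hydroxylase subunit at 27.2 FPKM in deleted replicate 2 and 6.73 to 10.6 FPKM elsewhere. Ltbp1 was most like Dmpk (r = 0.997), a muscle kinase gene at 48.0 FPKM in deleted replicate 2 and 15.0 to 24.7 FPKM elsewhere. Tgfb1 was most like Pid1 (r = 0.990), Tgfb3 like Pofut2 (r = 0.986) and Inhba like Helz (r = 0.980). Tgfbr2 was most like the neuronal gene Crmp1 (r = 0.995) and Tgfbr3 like the channel subunit gene Kcnmb2 (r = 0.988). For Tgfbr1, Ltbp2 and Tgfbi the nearest were Ccdc21 (r = 0.987), Arpc4 (r = 0.988) and Trrap (r = 0.975). All these values rest on the same 7 libraries, 2 of which stood apart. Each r is the highest of 12333, so a high value can come from the search alone and shows no link between the genes.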

How the data were processed

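RNA of cultured fetal kidneys was measured in 7 libraries, 3 E2-2 deleted and 4 E2-2 wildtype. For each library, the deposited table gives FPKM per gene entry with interval bounds and a status, per the file headers. The submitters' processing notes list, without roles, Cufflinks 2.0.2, TopHat2 2.0.4 and CASAVA 1.8.2; genome build, annotation and use of strand are in none of the sources used here. Starts of loci were raised by 1, because the span of a locus equalled end minus start for 8691 of 20480 genes in a GRCm38 table and end minus start plus 1 for 528. Only 166 had the same start and end there.

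The tables hold no read counts. The square of 2 times the FPKM over the distance to its upper bound gave an inferred fragment number, an inference from the values: of those under 300, 78.9% to 80.0% were whole to within 0.05, where chance gives 10%. Inferred depth was 14.6 to 26.6 mega-fragments. FPKM removes most differences in depth, and shallow libraries measure low genes less precisely.

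Entries of 1 symbol were added up, and genes with a failed status in any library and small RNAs were dropped. Values were log2(FPKM + 1) without further scaling, and genes with a mean of at least 1 FPKM were fitted with limma 3.58.1 in R 4.3.3 (empirical Bayes with trend, 2-sided, Benjamini-Hochberg over all 13466 genes, threshold 0.05). Shares and single values were compared by exact 2-sided permutation tests over the 35 arrangements of 7 libraries, adjusted over the 10 shares. Replicate numbers follow the order of deposit and pair nothing. The scripts were tested on simulated data. Alternatives were other pseudocounts, filters, scalings, weights, the name prefix as a term and leaving out each library. The text names all 10 members, the 3 genes of smallest p in each pathway list (1 of them is not reported here), and the gene most like each member; other genes are said to be named after their values were seen. The members and lists were chosen with earlier results of these data known. Protein sequences are not used here.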

Additional observations from a re-analysis of the deposited data

Results flagged for a closer look

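The share of Ltbp2 among the 4 LTBP genes was 17.9% in E2-2 wildtype replicate 3 and 7.30% to 7.91% in the other wildtype libraries, a gap wide enough to set that library apart from its group. Of 35 gene levels and shares checked in the 4 wildtype libraries, this was the 1 in which a library was flagged, and chance gives about 1 in 20. The Ltbp2 level was also high in wildtype replicate 3, at 28.2 FPKM against 6.05 to 9.67 FPKM in the other wildtype libraries. Whether a level is flagged can depend on the scale used. The deleted group, with 3 libraries, was not checked.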

How the results depend on the processing

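No member of the list passed an adjusted p of 0.05 in any of the alternatives run, and 173 of 180 recomputed differences kept their direction; the adjusted p ranged from 0.430 (Tgfb2) to 1. With 1 library left out, Tgfb3 ranged from -0.53 to 0.01, Tgfbi from -0.14 to 0.20 and Inhba from -0.36 to 0.50. The direction turned for Tgfb3 (0.01 without wildtype replicate 3), for Tgfbi (-0.12 with a weight per library, -0.14 without deleted replicate 1, -0.03 without wildtype replicate 3) and for Inhba (-0.36 without deleted replicate 2, -0.02 without wildtype replicate 1, -0.20 without both libraries that stood apart, chosen after seeing the data). Over all genes, limma called 0, and 1 with no filter (Ndufs5, adjusted p = 0.000838), with a weight per library (9130015A21Rik, 0.0450) or without both libraries (Igfbp6, 0.0346), named after their values were seen. The 605 genes at an unadjusted p under 0.05 became 1000 with no filter, 394 with a minimum of 5 FPKM, 1143 with weights and 264 without both libraries, and 250 (without deleted replicate 2) to 1473 (without deleted replicate 1) with 1 library left out; it was 336 without wildtype replicate 4. Members at that level numbered 1 with weights (Tgfbr3) and 0 to 1 with a library left out. Pathway genes at that level numbered 1, and 2 with quantile normalization, 5 with weights and 0 (without wildtype replicate 4) to 7 (without deleted replicate 1) with a library left out. Ligand, receptor and LTBP shares past the threshold numbered 0 throughout. With a library left out this was fixed in advance, because fewer arrangements cannot give an exact permutation p under 0.05. Taking the largest entry of a symbol left the shares as they were. The alternatives therefore do not test how firm the result for the shares is. Median-of-ratios scaling moved the median of the 10 members from 0.20 to 0.25. The cause of these shifts was not tested. No paired analysis was possible because the replicate numbers follow the order of deposit and pair nothing. Depth limits Inhba most.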
